A study of Mus musculus with 4 samples.

Results

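Collagen chains of all types were compared between the sub-lines 4T1-S and 4T1-A of the mouse mammary carcinoma line 4T1, which arose in BALB/c. The members were all array spots other than controls whose gene name has the form Col, a number, a and a number, which gave 100 spots of 82 probes and 41 gene names, out of 41152 probes and 27950 gene names in all. Among those names Col4a3bp, with 4 probes, belongs to no collagen chain: RefSeq calls it Cert1, a ceramide transfer protein, and it is described apart. The remaining 78 probes stood for 40 collagen genes, of which 11 encode fibrillar chains, 6 the type IV chains of basement membranes and 23 other collagens. Each sub-line had 2 arrays of untreated total RNA as far as the labels say, and they name no genotype, treatment, passage or clone that separates 4T1-A from 4T1-S. The series' title calls 4T1-S highly immunogenic. Nothing in the labels says whether the 2 arrays of a sub-line stand for different cultures, and p-values then describe the spread of these arrays alone, which may be technical.

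Collagens are trimers of long chains wound into a helix. Fibrillar collagens (types I, II, III, V, XI, XXIV and XXVII) assemble into the cables of connective tissue, with types V and XI nucleating fibrils inside type I and type II cables. Type IV chains instead form the sheet-like network of basement membranes on which mammary epithelium rests, and the other collagens decorate fibrils, anchor epithelia, form hexagonal nets or span the plasma membrane. Some types join different chains: type I, for example, joins products of Col1a1 and Col1a2.

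Intensities are given below relative to the array's 75th percentile over all spots other than controls, and each log2 difference is the mean of 4T1-S less the mean of 4T1-A, with its standard error (SE, n = 2 arrays per sub-line). A probe was tested with limma where it was well above background, by the scanner software's flag, on both arrays of either sub-line or of both, and it was called at an adjusted p under 0.05 (Benjamini-Hochberg over all 23668 probes tested). The arrays held between 54.9 and 59.2 percent of spots well above background, and all lay in 1 scan with a sub-line's arrays side by side, so slide position and sub-line cannot be told apart. The labelled cell type was checked on markers. All 8 epithelial markers were well above background on every array. Limma called 5 of them lower in 4T1-S, where 2.56 percent of all tested genes were called lower. The 5 were Epcam (-3.78 ± 0.22), Cldn4, Krt19, Krt14 and Cdh1. The simple keratins Krt8 (-0.19 ± 0.19, adjusted p = 0.569) and Krt18 (-0.14 ± 0.26) did not pass, nor did Krt5, which was higher in value (0.52 ± 0.21, adjusted p = 0.169). Of 6 endothelial markers 0 were tested, and 5 of them were below background on all arrays. Of 7 leukocyte markers 4 were tested and limma called 0.

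Many collagen probes gave no signal. Of the 78 probes, 30 (38.5 percent) were tested, against 57.5 percent of all probes on the array, and 42 (53.8 percent) were not well above background on any array, against 36.5 percent of all. The 30 probes stood for 22 genes. The other 18 genes were Col4a3, Col4a5, Col5a2, Col5a3, Col6a3, Col8a2, Col9a3, Col10a1, Col11a1, Col12a1, Col14a1, Col17a1, Col19a1, Col20a1, Col23a1, Col25a1, Col27a1 and Col28a1. The 48 probes left untested read from 0.00983 to 0.191 over the arrays, and 6 of them were well above background on 1 array of a sub-line. A total of 3 tested probes of the chains were well above background only in 4T1-S, those of Col1a1, Col2a1 and Col22a1, and 0 only in 4T1-A; over all tested probes these shares were 3.68 and 1.42 percent.

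A total of 4 collagen probes, all of fibrillar chains, were higher in 4T1-S and 0 were lower. This is 13.3 percent of the 30 tested, where 4.58 percent of all tested probes were called, 2.21 percent higher and 2.37 percent lower. Among these 4, a Col1a1 and a Col2a1 probe entered the test through 4T1-S alone, where they were high. Of the 25 probes above background on all arrays 2 were called higher, and with all 78 probes tested 0 were higher and 1 was lower. At an unadjusted p under 0.05 limma gave 10 higher and 0 lower, where 17.5 percent of all tested probes were higher and 7.92 percent lower. After scaling to the median that split was 5 to 2 for the collagens, against 4.60 percent higher and 20.4 percent lower of all. The 10 higher probes before that scaling, except a Col5a1 probe, were dim, with a highest reading of 0.263 (Col1a2). The shares over all probes were not split by intensity. Counted by the probe with the highest mean of each gene, 3 of 22 genes were higher, Col1a1, Col2a1 and Col5a1, and 0 were lower, against 2.46 percent higher and 2.56 percent lower (5.02 percent in all) of 16160 genes. A difference of at least 2-fold was measured for 3 of the 30 probes and for 4.86 percent of all. The median difference of the 30 probes was 0.26 and that of all tested probes 0.11, and both turned negative, to -0.04 and -0.18, with scaling to the median. Arrays of the sub-lines did not overlap for 20 of the 30 probes, or 66.7 percent, close to the 56.5 percent of all tested probes. Without 4T1-S replicate 2 limma called 0 collagen probes (7 higher and 0 lower at an unadjusted p under 0.05), and without 4T1-S replicate 1 it called 2.

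**Figure D1:**
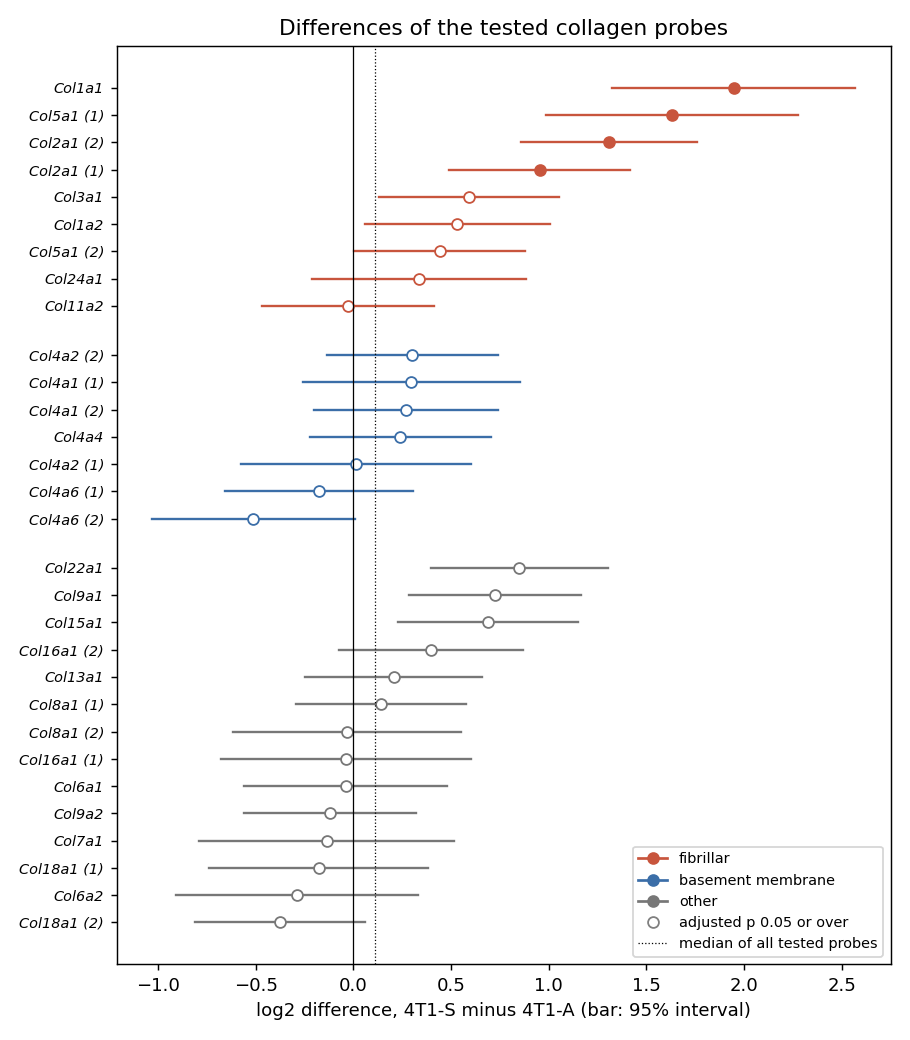
Log2 difference of the 30 tested collagen probes, 4T1-S minus 4T1-A, with 95% intervals, grouped as fibrillar, basement membrane and other chains; filled points passed at an adjusted p under 0.05, the dotted line is the median of all tested probes, and numbers in brackets order a gene's probes by mean intensity. The 4 filled points are all fibrillar and lie between 0.95 and 1.95.

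Among fibrillar probes above background on all arrays, that of Col5a1 differed most. Col5a1 encodes a chain of type V collagen, which sets the diameter of type I fibrils. Its probe A_51_P414637 read 2.78 and 4.39 in 4T1-A against 9.27 and 12.6 in 4T1-S. Both 4T1-S arrays were thus above both 4T1-A arrays, and the fold was 3.10 (1.63 ± 0.28, 95% interval 0.99 to 2.28, limma adjusted p = 0.0195). The other probe of Col5a1, A_52_P237371, read 0.127 and 0.125 in 4T1-A against 0.179 and 0.165 in 4T1-S. Its arrays did not overlap either, but the difference of 0.44 ± 0.19 did not pass (adjusted p = 0.194). The call of A_51_P414637 ended when 4T1-S replicate 2 was left out (adjusted p = 0.122) or all probes were tested (0.112). The mean of both probes gave 1.04 (adjusted p = 0.0273).

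Col5a1 lies on chromosome 2 and Col1a2, the type I chain described below, on chromosome 6, in the RefSeq table of GRCm38.p6 (the array files name no build). The 250 bases before the RefSeq start of each are shown because these fibrillar chains differ in their call and 32 of the 40 collagen genes had such a window. Capitals mark every match on either strand of the GC box (GGGCGG) and of the CCAAT box. The matches do not overlap.
Col5a1 promoter, chr2:27886175-27886424, + strand: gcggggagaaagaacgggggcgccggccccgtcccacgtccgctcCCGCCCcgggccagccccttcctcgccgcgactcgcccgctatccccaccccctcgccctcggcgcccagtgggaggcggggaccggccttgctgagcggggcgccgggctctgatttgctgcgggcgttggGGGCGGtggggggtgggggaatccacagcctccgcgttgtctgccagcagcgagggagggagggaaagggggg
Col1a2 promoter, chr6:4505368-4505617, + strand: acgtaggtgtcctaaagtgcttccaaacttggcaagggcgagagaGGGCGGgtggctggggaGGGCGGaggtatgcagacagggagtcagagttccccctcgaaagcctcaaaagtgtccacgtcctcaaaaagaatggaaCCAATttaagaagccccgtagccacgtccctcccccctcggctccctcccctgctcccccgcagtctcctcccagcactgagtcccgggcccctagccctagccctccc
The Col5a1 window held 2 GC boxes and 0 CCAAT boxes, and the Col1a2 window 2 GC boxes and 1 CCAAT box. Of all 32851 windows of that length, 32.7 percent held a GC box and 33.8 percent a CCAAT box, and a match here is a description only.

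Col1a1, on chromosome 11, encodes the major chain of type I collagen and was seen by 1 of its 3 probes. That probe, A_52_P525107, read 0.0271 and 0.0416 in 4T1-A, where it was not well above background, and 0.112 and 0.149 in 4T1-S, where it was. The measured difference was 1.95 ± 0.27 (limma adjusted p = 0.00777). The lowest probe well above background stood at 0.0511 and 0.0488 on the 4T1-A arrays. Against those levels Col1a1 in 4T1-S was 2.59-fold higher, taken without array spread. They are no strict limit, since a Col1a2 probe not well above background read 0.0588 on 4T1-A replicate 2. A_52_P525107 was spotted 10 times per array. In 4T1-A its spots ran from 0.0154 to 0.0387 and from 0.0340 to 0.0520, and 0 of 10 were well above background on either array. In 4T1-S they ran from 0.0841 to 0.136 and from 0.132 to 0.199, and 10 of 10 were well above background on both. Every 4T1-S spot was therefore brighter than every 4T1-A spot, although spots of 1 array are repeat readings and not replicates. The other probes, A_51_P377094 and A_52_P658611, were not well above background on any array. Leaving out 4T1-S replicate 2 ended the call (adjusted p = 0.0613), as did testing all probes (0.0853). Normexp background correction gave 0.76 (0.0485) and the mean of the 3 probes 0.92 (0.0363).

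Col2a1, on chromosome 15, encodes the single chain of type II collagen, known from cartilage. It was called by 2 of its 3 probes. A_51_P317141, also spotted 10 times, read 0.0441 and 0.0426 in 4T1-A against 0.115 and 0.10 in 4T1-S (1.31 ± 0.19, limma adjusted p = 0.0105). Against the lowest probe well above background in 4T1-A, as for Col1a1, it was 2.15-fold higher in 4T1-S. In 4T1-A 2 and 1 of the 10 spots were well above background, and in 4T1-S 10 and 10 were. The lowest 4T1-S spots, at 0.0955 and 0.0771, were above the highest 4T1-A spots, at 0.07 and 0.0706. A_52_P216436 was above background on all arrays and read 0.110 and 0.0914 in 4T1-A against 0.192 and 0.197 in 4T1-S (0.95 ± 0.20, adjusted p = 0.0415). The third probe, A_52_P564148, stayed below background on all arrays. Both calls were lost with normexp (adjusted p = 0.0945 and 0.0848), without 4T1-S replicate 1 (0.0698 and 0.140) or replicate 2 (0.0555 and 0.174), and with no filter on background (0.0666 and 0.114); that of A_52_P216436 was also lost with quantile normalization (0.0693), scaling to the median (0.102) and without 4T1-A replicate 2 (0.0941).

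**Figure D2:**
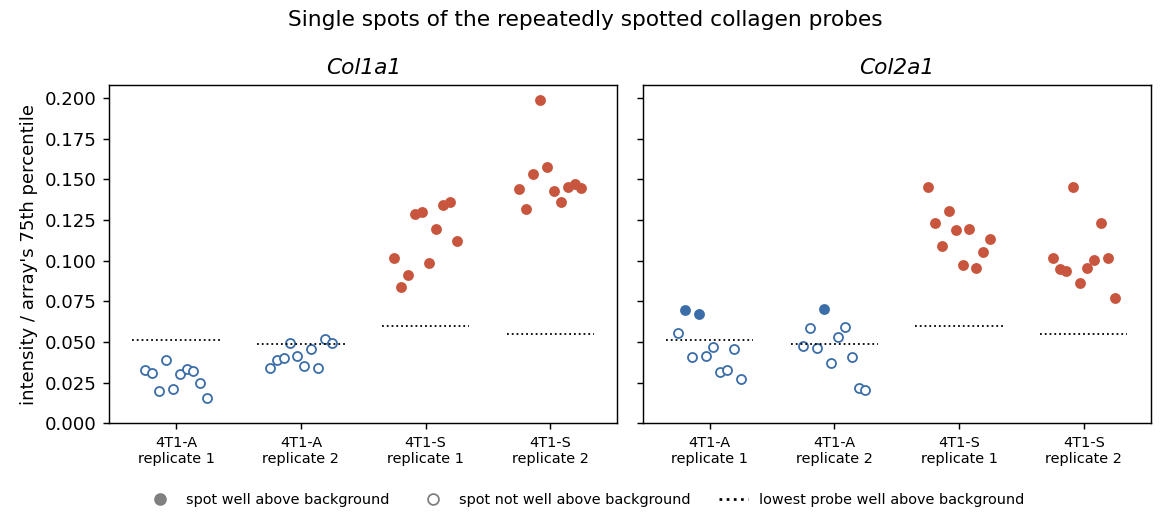
Intensity, relative to the array's 75th percentile, of each of the 10 spots of the repeatedly spotted Col1a1 and Col2a1 probes on each array; open points were not well above background and dotted lines mark the lowest probe well above background. The 4T1-S spots of both probes lie above all 4T1-A spots, which reach 0.0520 for Col1a1 and 0.0706 for Col2a1.

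The remaining fibrillar chains did not pass. Col1a2, the partner of Col1a1, was well above background on all arrays with 1 probe and read 0.187 and 0.157 in 4T1-A against 0.263 and 0.233 in 4T1-S (0.53 ± 0.20, 95% interval 0.06 to 1.0, adjusted p = 0.158). Col3a1, the chain of type III collagen, read 0.0567 and 0.0639 in 4T1-A, where 1 array was above background, and 0.0852 and 0.0967 in 4T1-S (0.59 ± 0.20, adjusted p = 0.124). The arrays of the sub-lines did not overlap for either gene. Col24a1 differed by 0.34 ± 0.23 and Col11a2, a chain of type XI collagen, by -0.03 ± 0.19 (95% interval -0.47 to 0.41). In all, 8 of 9 fibrillar probes were higher in value in 4T1-S and 7 of these did not overlap, where 60.8 percent of all tested probes had a difference above 0 and 37.8 percent were higher without overlap. The median of the 9 was 0.59, against 0.30 after scaling each array to its median. Among the 9, the Col1a1 probe, a Col2a1 probe and the Col3a1 probe entered the test through 4T1-S alone, which favours a higher value there. Of the 6 fibrillar probes above background on all arrays 5 were higher in value, with a median of 0.49.

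**Figure D3:**
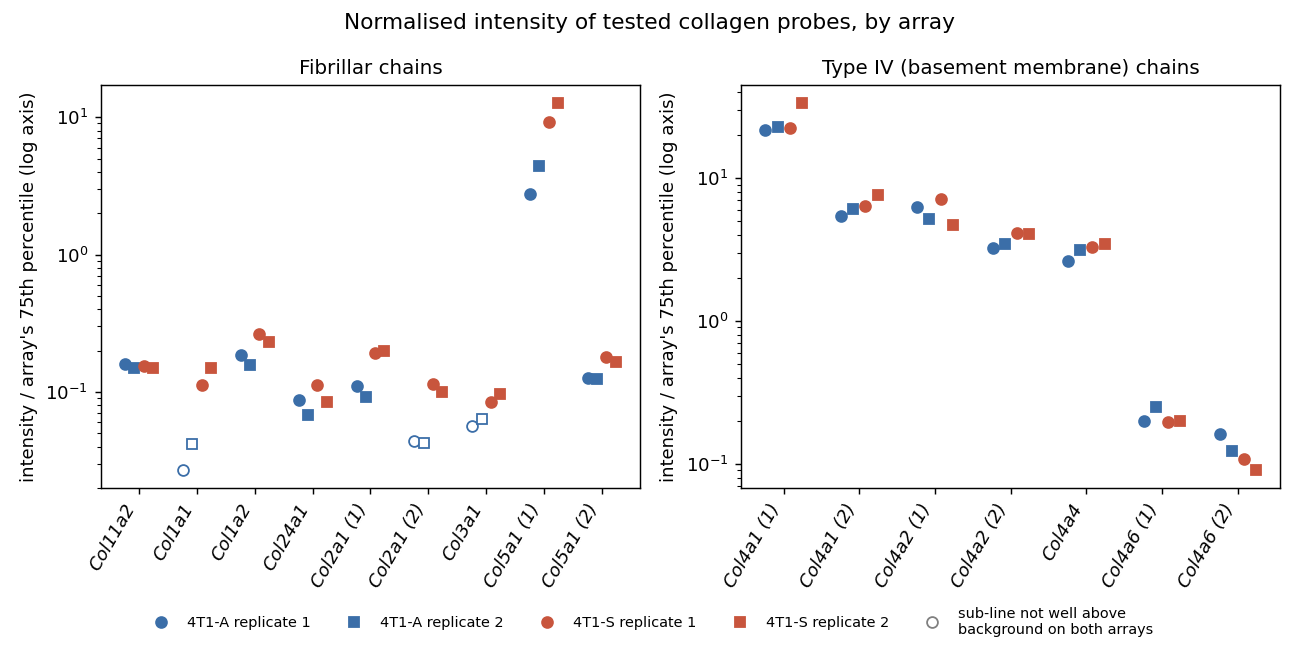
Intensity relative to the array's 75th percentile, on a log axis, of the tested fibrillar and type IV probes on each of the 4 arrays; open points mark a sub-line whose arrays were not both well above background, and numbers in brackets order a gene's probes by mean intensity. Both 4T1-S arrays lie above both 4T1-A arrays for 7 of 9 fibrillar and 3 of 7 type IV probes; levels of different probes are not comparable.

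Type IV collagen showed no called difference. Of 7 tested probes limma called 0 in either direction, and 0 had an unadjusted p under 0.05. Col4a1 and Col4a2, neighbours on chromosome 8 whose products form the common network of basement membranes, were above background on all arrays with both probes each. The brighter Col4a1 probe read 21.8 and 22.8 in 4T1-A against 22.5 and 33.4 in 4T1-S (0.30 ± 0.24, 95% interval -0.26 to 0.85), and the brighter Col4a2 probe read 6.31 and 5.20 against 7.11 and 4.71 (0.01 ± 0.25, 95% interval -0.57 to 0.60). The sub-lines overlapped for both. The second probes gave 0.27 ± 0.20 for Col4a1 and 0.30 ± 0.19 for Col4a2, so none of the 4 intervals, which end at 0.85 or lower, held a 2-fold difference.

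The rarer type IV chains, which replace them in specialised basement membranes, were seen in part. Col4a4 read 2.61 and 3.13 in 4T1-A against 3.31 and 3.45 in 4T1-S (0.24 ± 0.20) with 1 of its 2 probes, while its neighbour on chromosome 1, Col4a3, was below background with all 3 probes. Col4a6 was above background with 2 of 3 probes, at 0.198 and 0.250 in 4T1-A against 0.196 and 0.198 in 4T1-S (-0.18 ± 0.21) and at 0.162 and 0.123 against 0.108 and 0.0904 (-0.51 ± 0.22, adjusted p = 0.202). Its X-linked neighbour Col4a5 was not well above background with its 1 probe. The median of the 7 type IV probes was 0.24 and turned to -0.05 with scaling to the median. Whether fibrillar and type IV chains differ in their response was not tested.

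Of the other collagens, 14 probes of 11 genes were tested and limma called 0. At an unadjusted p under 0.05 it gave 3 higher and 0 lower, a share near the 17.5 percent of all probes that were higher. The 3 were Col22a1, a collagen of tissue junctions, Col9a1, which coats type II fibrils, and Col15a1, a basement membrane zone collagen. Col22a1 read 0.0432 and 0.0480 in 4T1-A, where it was not well above background, and 0.0867 and 0.0779 in 4T1-S (0.85 ± 0.19, limma adjusted p = 0.0548). Against the lowest probe well above background in 4T1-A, its level in 4T1-S was 1.65-fold higher. Col9a1 read 0.0819 and 0.0856 against 0.133 and 0.144 (0.73 ± 0.19, adjusted p = 0.0755). Col15a1 read 0.0755 and 0.0639 against 0.115 and 0.109 (0.69 ± 0.20, adjusted p = 0.0919). None of these overlapped between sub-lines. Col22a1 passed with 1 probe per gene name (0.0398) and Col9a1 with the mean of a gene's probes (0.0489), while Col15a1 passed under neither. Both settings adjust over fewer tests. Col9a1 has 1 probe, so averaging left its difference at 0.73. With normexp, quantile normalization and scaling to the median, the Col22a1 difference fell to 0.46, 0.51 and 0.56 (limma adjusted p = 0.132, 0.197 and 0.134). That of Col9a1 fell to 0.39, 0.51 and 0.44 (0.135, 0.215 and 0.225) and that of Col15a1 to 0.39, 0.42 and 0.40 (0.144, 0.28 and 0.251).

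The remaining tested probes of other collagens had an unadjusted p of 0.05 or over. Col18a1, the source of endostatin, read 45.1 and 67.1 in 4T1-A against 46.1 and 51.4 in 4T1-S (-0.18 ± 0.24), and its other probe read 12.2 and 11.8 against 9.35 and 9.15 (-0.37 ± 0.19, adjusted p = 0.253). The arrays overlapped for the former and not for the latter. Col7a1, which forms the anchoring fibrils beneath epithelia, read 20.9 and 14.8 against 20.0 and 12.9 (-0.14 ± 0.28). Col8a1, a chain of hexagonal nets, read 116 and 118 against 130 and 128 (0.14 ± 0.19, 95% interval -0.29 to 0.58), and its second probe gave -0.03 ± 0.25. Col16a1, which sits at the surface of fibrils, read 9.86 and 14.1 against 9.42 and 14.1 (-0.04 ± 0.27), and its second probe gave 0.40 ± 0.20. Col6a1 (-0.04 ± 0.22) and Col6a2 (-0.29 ± 0.27), chains of the beaded type VI filaments, Col9a2 (-0.12 ± 0.19) and the transmembrane Col13a1 (0.21 ± 0.19) completed the set. The median of the 14 probes was -0.03, and it ranged from -0.32 with scaling to the median to 0.18 without 4T1-A replicate 2.

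Chains that assemble with each other were not always seen together. Col5a1 was above background on all arrays with both probes, but its usual partner Col5a2 was not on any. In type VIII, Col8a1 was seen on all arrays and Col8a2 on none. Col6a1 was seen on all arrays and Col6a2 on 3 of 4, whereas 3 probes of Col6a3, a further type VI chain, were not well above background on any. Col6a4, another type VI chain, which the naming pattern missed, was seen on 1 array of 4T1-A and on both of 4T1-S. Col11a2 was seen with 1 of 2 probes and Col11a1 with 0 of 2. Col9a1 and Col9a2 were seen on all arrays and Col9a3 on 1. For type I, Col1a2 was seen in both sub-lines and Col1a1 in 4T1-S. A probe's background flag depends on the probe as well as on the transcript, as the silent probes of Col1a1, Col2a1 and Col4a6 beside detected ones show. An unseen partner therefore cannot be taken as absent.

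The 3 tested probes of Col4a3bp (Cert1), which fits the naming pattern alone, were lower in value without overlap, as were 18.7 percent of all tested probes, and none passed. The one with the highest mean read 7.53 and 6.39 in 4T1-A against 4.93 and 4.79 in 4T1-S (-0.51 ± 0.20, adjusted p = 0.159), and the others gave -0.47 ± 0.22 and -0.21 ± 0.19.

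Collagen chains are hydroxylated and folded in the endoplasmic reticulum, trimmed outside the cell, cross-linked, bound by receptors and degraded. Of 64 listed genes for these steps, 62 were on the array and 47 were tested by the probe with the highest mean. Of these, 2 were higher, 1 was lower and 44 did not pass, where 2.46 percent of all genes were called higher and 2.56 percent lower. Their median difference was 0.18 and that of all genes 0.14. The higher genes were Pcolce, which enhances the cleavage of the carboxyl propeptide from fibrillar procollagens, and Fkbp7, a prolyl isomerase of the endoplasmic reticulum. Pcolce read 15.7 and 32.8 in 4T1-A against 60.02 and 93.3 in 4T1-S (1.72 ± 0.37, 3.29-fold, adjusted p = 0.0460). Both 4T1-S arrays were above both 4T1-A arrays, which themselves lay far apart. Fkbp7 read 0.903 and 0.936 against 1.88 and 1.81 (1.01 ± 0.19, adjusted p = 0.0281). P3h4, a component of the collagen hydroxylation complex that acts on lysines, was lower, at 0.167 and 0.166 against 0.0871 and 0.0730 (-1.06 ± 0.20, adjusted p = 0.0281). Without 4T1-S replicate 1 or replicate 2 all 3 calls were lost (adjusted p between 0.0718 and 0.187), and with no filter on background (between 0.0921 and 0.154). Those of Pcolce and P3h4 were also lost with normexp (0.109, and 0.212 with a difference of -0.25), those of Pcolce and Fkbp7 with scaling to the median (0.0823 and 0.0749), that of Pcolce with quantile normalization (0.0830) and on probes above background on all 4 arrays (0.0556), and that of Fkbp7 without 4T1-A replicate 1 (0.0543).

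By step, 1 of 13 tested hydroxylation genes was lower and 12 did not pass, among them P4hb, a subunit of prolyl 4-hydroxylase (0.13 ± 0.19). Of 7 tested genes of folding and secretion 1 was higher, and the collagen chaperone Serpinh1 read 16.7 and 15.1 in 4T1-A against 28.4 and 23.7 in 4T1-S but did not pass (0.71 ± 0.20, adjusted p = 0.0908). Of 9 tested genes of propeptide cleavage and fibril assembly 1 was higher. Bmp1, the protease that Pcolce enhances, was named after its values were seen, as was Loxl1. It read 31.4 and 33.7 against 48.9 and 45.3 and did not pass (0.53 ± 0.19, adjusted p = 0.141). Limma called 0 of 5 cross-linking genes, 0 of 8 receptors and 0 of 5 degradation genes; the transglutaminase Tgm2 gave 1.23 ± 0.35 (adjusted p = 0.0922), the lysyl oxidase Loxl1 0.91 ± 0.21 (0.0531), the collagen receptor kinase Ddr2 0.63 ± 0.19 (0.104) and the membrane collagenase Mmp14 0.14 ± 0.30 (0.80). At an unadjusted p under 0.05, 14 of the 47 genes were higher and 1 lower, where 19.4 percent of all genes were higher and 7.83 percent lower. With scaling to the median the split turned to 5 higher and 10 lower (10.6 and 21.3 percent). Of all tested probes 4.60 percent were then higher and 20.4 percent lower.

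**Figure D4:**
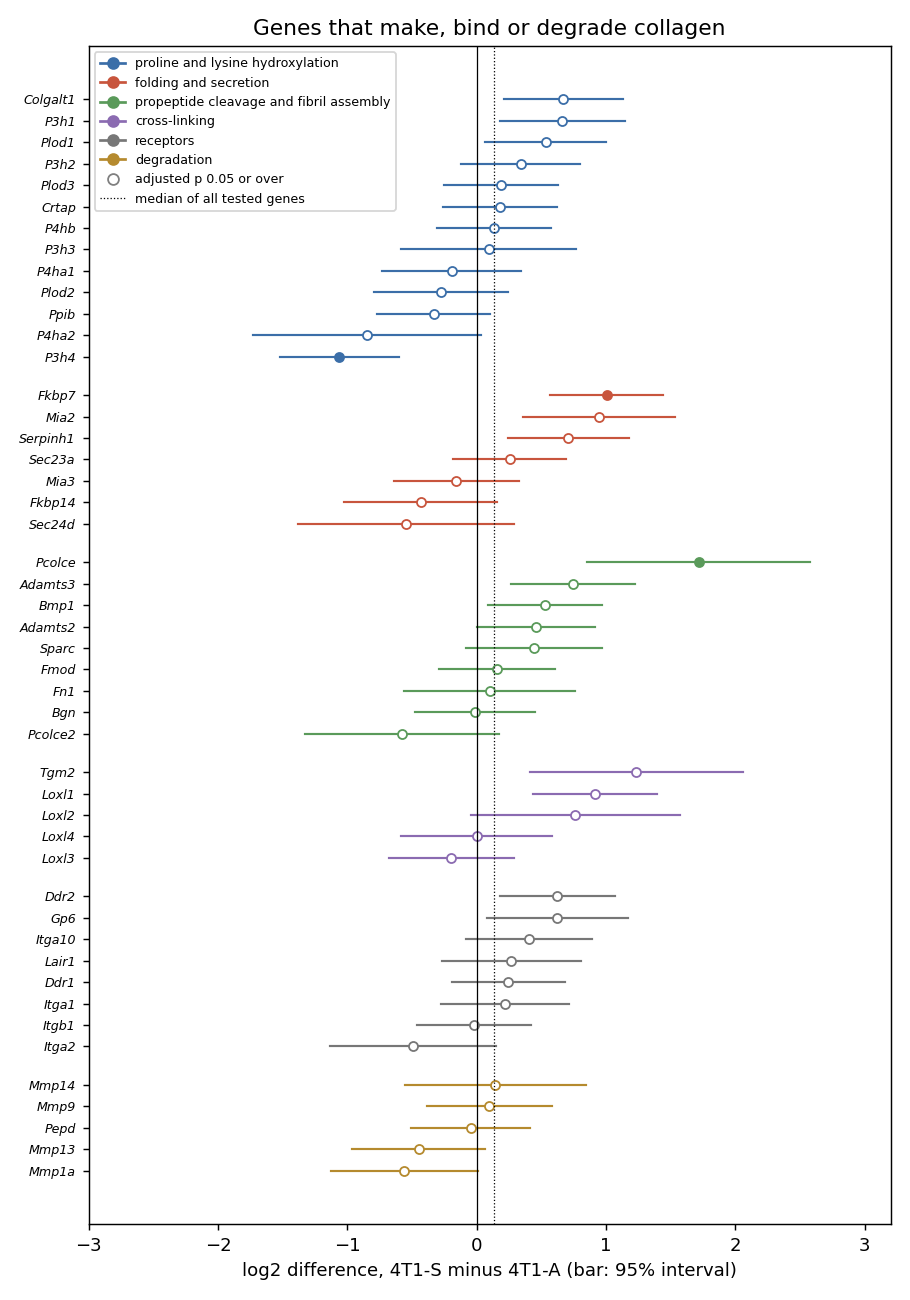
Log2 difference, 4T1-S minus 4T1-A, with 95% intervals, of the 47 tested genes that modify, fold, process, cross-link, bind or degrade collagen; filled points passed at an adjusted p under 0.05 and the dotted line is the median of all tested genes. The filled points are Pcolce at 1.72, Fkbp7 at 1.01 and P3h4 at -1.06.

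Fibrillar collagens are typical products of fibroblasts. Of 8 fibroblast markers 3 were tested and limma called 0 of them, and the summed level of the 8 was 97.8 and 93.8 in 4T1-A against 97.0 and 89.7 in 4T1-S. That sum is nearly all Fbln2 (68.9 to 75.1) and Acta2 (13.7 to 28.4) and does not speak for the other 6. Pdgfrb, Fap and Lum were not well above background on any array, and Dcn and Thy1 were on 1 array of each sub-line. Pdgfra read 0.324 and 0.529 in 4T1-A against 0.780 and 0.758 in 4T1-S and did not pass (0.89 ± 0.26, adjusted p = 0.0957). Its part in the difference of the fibrillar chains was not tested. In bulk RNA a change in the number of cells and a change in RNA per cell cannot be told apart.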

How the data were processed

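The spot intensity values were extracted, as the submitters' processing notes give it, with Agilent Feature Extraction 9.1. Per the file headers the deposited intensity is background-subtracted and detrended, with surrogates for low signals, and not scaled between arrays. The deposited series table holds a ratio of that intensity to the array's 75th percentile to 3 decimals, found from the values (column medians 0.078, 0.076, 0.098 and 0.091, in the order 4T1-A and then 4T1-S replicates 1 and 2). Gene names came from the file of 4T1-S replicate 2, since 47 names in that of 4T1-A replicate 1 were altered.

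Log2 intensities were centred on the 75th percentile, outlier-flagged spots (5 to 9 an array) were dropped before the spots of a probe were averaged; 22 probes without a value on an array, 0 of them collagen, were dropped. A probe counted as well above background where over 50 percent of its spots did. All probes were fitted with limma 3.58.1 (residual degrees of freedom 2, prior 5.49) in R 4.3.3, and the procedure was tested on simulated data. Of 200 probes changed in the simulation, limma called 0 percent at 2-fold, 51.5 percent at 4-fold and 89.5 percent at 16-fold. A missing call thus does not show that a probe was unchanged. The simulation changed only 200 of 23668 probes, where 1085 were called in the data, so its adjusted threshold was stricter. Its percentages are therefore no recovery rates for these data, in which Fkbp7 was called at a log2 difference of 1.01. The array number limits precision. Every collagen gene with a tested probe is named, as are listed pathway genes that passed and the brightest of each step. Members, lists and rules were chosen with earlier results of these data known.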

Additional observations from a re-analysis of the deposited data

How the results depend on the processing

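The 4 calls of collagen probes became 2 with normexp, 3 with quantile normalization, 3 with scaling to the median, 1 (Col17a1, lower) with no filter on background and 2 on probes above background on all 4 arrays, and ranged from 0 to 5 when 1 array was left out. The 3 calls of pathway genes became 1 with normexp, 1 with scaling to the median, 6 with the mean of a gene's probes and 0 with no filter (16 higher and 1 lower at an unadjusted p under 0.05), and ranged from 0 to 8 when 1 array was left out. Over all probes limma called 1085 (523 higher, 562 lower), against 542 with normexp, 302 with no filter, 584 on probes above background on all arrays, a split of 224 higher to 1162 lower after median scaling, and from 420 to 1972 when 1 array was left out, where the lone array is assumed to vary like the others. The labels number the arrays of both sub-lines 1 and 2, and nothing says that a number marks a shared culture or day; same-numbered arrays deviated together over probes (r = 0.443). With a replicate block 8 of 30 collagen probes were called, all higher (those of Col3a1, Col9a1, Col15a1 and Col22a1 added). Of 47 pathway genes 13 were called, 11 higher and 2 lower. Calls rose over the whole array too, to 4672 of 23668 probes, 3008 higher and 1664 lower. With no filter on background, the 16 higher and 1 lower pathway genes were of 62. Of all 41152 probes 6458 were then higher and 1919 lower at an unadjusted p under 0.05. Of the 33 collagen and pathway probes followed one by one, none changed direction with a call on either side under the settings run. The slide was not fitted as a block because all arrays lay in 1 scan. Readings not well above background do not give a level, and 2 arrays per sub-line limit every value.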

Other observations

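A total of 4 probes carry other names in the array files but belong, in the RefSeq table, to collagen genes, so the naming pattern missed them. The probe of Col6a4, a type VI chain, read 0.0554 and 0.0591 in 4T1-A, where 1 array was well above background, and 0.101 and 0.133 in 4T1-S (1.02 ± 0.21, SE, n = 2 arrays per sub-line, limma adjusted p = 0.0416). Those of Col6a6, Col26a1 and a further one of Col11a1 were not well above background on any array.

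The following were singled out after their values were seen. Col17a1, the transmembrane collagen of hemidesmosomes, was not tested, since 1 of 2 4T1-A arrays was well above background with probe A_51_P358344. Its level was 0.0828 and 0.0557 in 4T1-A against 0.0134 and 0.0149 in 4T1-S. Both 4T1-S arrays were below background, where the lowest probes above it stood at 0.0596 and 0.055. Replicate 2 of 4T1-A, at 0.0557, was not well above background either, so the fold has no lower bound. Col17a1 was called lower with no filter on background (limma adjusted p = 0.0490). Without 4T1-A replicate 2 the difference was -2.55, a setting the probe entered through the other 4T1-A array alone. The other probe of Col17a1, A_51_P358342, stayed below background on all arrays. Col5a3, a further type V chain, spread widely within 4T1-A with probe A_52_P503796, at 0.0430 and 0.191, against 0.113 and 0.0733 in 4T1-S, and was called lower without 4T1-A replicate 1 (-1.07, adjusted p = 0.0471).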
